A study of Mus with 8 samples.

Results

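Integrins are cell surface receptors made of an alpha and a beta chain, and laminins are three-chained proteins of the basement membrane to which several integrins bind. The genes described here are the 42 symbols of the count table that begin with Itga or Itgb, or are Lama, Lamb or Lamc followed by a digit, out of 31269 symbols in all. They comprise 27 integrin subunits, 11 laminin chains and 4 symbols that share the prefix without encoding an integrin subunit (Itgb1bp1, Itgb1bp2, Itgb3bp and Itgbl1). All 42 passed the filter on low counts, and each had at least 21 reads in every library. The members were chosen by name, not by any measured value, though with earlier results of these data known.

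RNA of mouse uterus at pseudopregnancy day 6, the hormonal state that follows a sterile mating, was sequenced in 4 control libraries and 4 libraries whose genotype is given as myometrial PGR deficiency. PGR is the progesterone receptor and the myometrium is the muscular wall of the uterus. The labels place the tissue around embryo implantation sites, which a pseudopregnant uterus does not have, and the sources used here give no strain, age, allele, driver of the deletion or control genotype. The labels do not say whether the libraries are separate animals, so p-values measure the spread between libraries, which may be technical. The question addressed is how these adhesion genes differ between the 2 groups.

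In muscle and stroma, integrins that contain the Itgb1 chain hold cells to collagen, fibronectin and laminin. In epithelium, the Itga6 and Itgb4 chains and a laminin that contains Lama3 and Lamb3 anchor the basal cell surface to the basement membrane. The Itgb2 chain is carried by leukocytes, where it pairs with Itgal (LFA-1), Itgam (Mac-1), Itgax or Itgad and serves adhesion to vessel walls and to other cells. The uterus holds all of these cells, and in RNA of whole tissue more cells of a type and more RNA per cell cannot be told apart.

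Total counts ran from 70296369 to 72364750 per library. Pgr itself lay between 131 and 180 CPM (reads per megaread of library size, scaled by the TMM method) in the controls and between 160 and 187 CPM in the other group, with edgeR adjusted p = 0.338. Pgr was not lower in that group, which is called "labelled deficient" here. The sources used here do not give the deleted part of the gene, and other uterine cells also carry Pgr, so that its count does not check the label. Uterine genes (Hoxa10, Hoxa11, Esr1, Msx1 and Wnt7a) and 10 of 10 smooth muscle markers were present in every library, with at least 519 and 838 reads. Libraries 2 and 3 labelled deficient stood apart in epithelial markers (10 of 10 detected in every library), whose summed level was 3562 and 2626 CPM there against 1412 and 1469 CPM in libraries 1 and 4 and 1355 to 1547 CPM in the controls. The differences of members whose values stood apart in these libraries are therefore given without them too.

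Across the family, leukocyte receptors, collagen receptors and epithelial adhesion genes had differences of both signs. The Itgb2 and Itgam chains of leukocytes and Itga4 lay higher in all 4 libraries labelled deficient than in any control. The collagen receptor chain Itga1, Itga3, Itgb8 and the laminin chains Lama3 and Lamb2 lay lower in all 4. The epithelial genes Itga6, Itga2 and Itgb6 had positive differences as well, with their highest values in libraries 2 and 3 labelled deficient.

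No member passed edgeR's quasi-likelihood test after adjustment over all 17629 genes tested, where 0% of genes passed. At an unadjusted p under 0.05 there were 15 members (35.7%), against 24.8% of all genes. Of these, 8 were higher, where 13% of all genes were, and 7 lower, where 11.8% were. In 8 members (19.0%) the groups did not overlap, against 16.3% of all genes. DESeq2 called 13 members (31.0%), against 14.2% of all genes, and limma-voom called 0. The DESeq2 count was unstable for the members and for all genes, of which 2488 were called in the full fit. It was 4 members and 1328 genes without control library 1, and 3 and 927 without control library 4. Without control library 3 it was 8 and 1751. Without library 2 labelled deficient it was 5 and 1531, without library 3 labelled deficient 7 and 1703, and without both of the latter 7 and 1461. The median log2 difference of labelled deficient over control was 0.10 for the members and 0.01 for all genes tested.

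**Figure D1:**
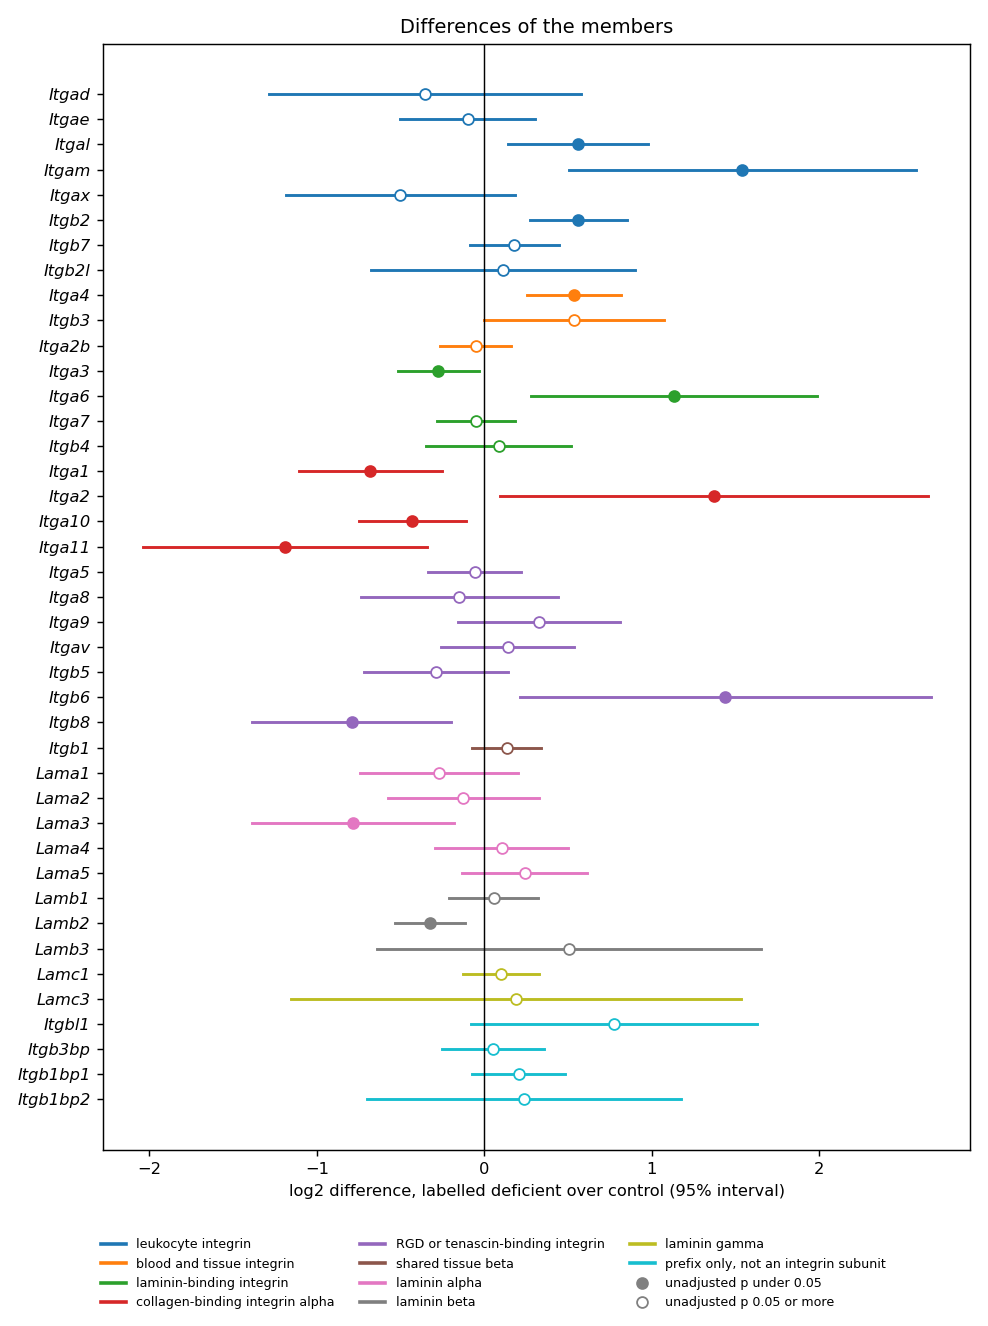
Log2 difference of labelled deficient over control with its 95% interval (horizontal axis) for each of 41 members (vertical axis), coloured by class, from the edgeR fit over 4 and 4 libraries. Filled points have an unadjusted p under 0.05, which 14 of them have. The differences run from -1.19 for Itga11 to 1.54 for Itgam.

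Of the 8 integrin chains of leukocytes, 5 had positive and 3 negative differences, and the chains of 1 receptor family did not all go the same way. Itgb2, the beta chain that Itgal, Itgam, Itgax and Itgad share, lies on chromosome 10 from 77530329 to 77565708 (GRCm38.p6, the assembly behind mm10). It measured 70.3, 78.2, 63.5 and 56.8 CPM in control libraries 1 to 4 and 92.3, 121, 93.2 and 91.2 CPM in libraries 1 to 4 labelled deficient. All 4 values of the second group lay above every control. The log2 difference was 0.56 ± 0.13 (SE), which is 1.48-fold (95% interval 1.21 to 1.81, edgeR adjusted p = 0.0906, DESeq2 adjusted p = 0.00277), and 0.45 ± 0.12 without libraries 2 and 3 labelled deficient.

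The alpha chains of Itgb2 did not all have the same sign of difference. Itgal, on chromosome 7 from 127296139 to 127335137, gives LFA-1, which lymphocytes use to bind ICAM proteins. It measured 81.7, 91.8, 65.3 and 60.6 CPM in the controls and 105, 145, 103 and 88.3 CPM in the other group. Library 4 labelled deficient lay within the control range, and the other 3 lay above it. On the log2 scale the groups differed by 0.56 ± 0.18 (edgeR adjusted p = 0.128), and 0.37 ± 0.18 without libraries 2 and 3. Within each library the ratio of Itgal to Itgb2 overlapped between the groups. Relative to the control mean its log2 value was between -0.10 and 0.09 in the controls and was 0.04, 0.12, -0.01 and -0.19 in the libraries labelled deficient.

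Itgam, the alpha chain of Mac-1 on macrophages, monocytes, granulocytes and natural killer cells, had the largest positive difference of all members. Its gene lies on chromosome 7 from 128062640 to 128118491. Levels were 45.9, 76.6, 52.2 and 49.4 CPM in the controls, and 82.5, 340, 139 and 91.9 CPM in the group labelled deficient. Library 2 stood far above the rest, and the other 3 lay above every control too. edgeR gave a log2 difference of 1.54 ± 0.45, a 2.91-fold ratio (95% interval 1.42 to 5.98, edgeR adjusted p = 0.111). Without libraries 2 and 3 it was 0.64 ± 0.20 (adjusted p = 0.184). In library 2 Itgam also parted from its partner, with a log2 ratio of Itgam to Itgb2 of 1.78 above the control mean, against 0.85 in library 3, 0.12 in library 1 and 0.29 in library 4.

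Itgax, a chain of dendritic cells and some macrophages whose gene lies beside Itgam (chromosome 7, 128129526 to 128150657), went the other way. It measured 35.6, 55.2, 22.0 and 41.98 CPM in the controls and 21.1, 36.0, 19.9 and 32.2 CPM in the other group, with wide overlap. The log2 difference was -0.50 ± 0.30 (edgeR adjusted p = 0.320). Relative to Itgb2, the Itgax level was lower by 1.04 log2 units on average (values -1.26, -0.88, -1.36 and -0.64 in libraries 1 to 4, controls -0.67 to 0.43), and only library 4 entered the control range. Itgad, the last chain of the same cluster, was scarce, at 1.15 to 3.36 CPM in the controls and 1.16 to 2.86 CPM in the other group.

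The remaining leukocyte chains overlapped between the groups. Itgb7, which pairs with Itga4 for homing to mucosal vessels and with Itgae for holding lymphocytes to epithelium, was at 28.8 ± 2.54 CPM in the controls and 32.5 ± 4.43 CPM in the other group (SD, n = 4 each). Itgae was at 13.0 ± 2.31 and 12.2 ± 2.16 CPM (SD, n = 4 each). Itgb2l, a close relative of Itgb2, was at 1.66 ± 0.373 and 1.80 ± 0.750 CPM (SD, n = 4 each). With all libraries none of these had an unadjusted p under 0.05, and their 95% intervals, on the fold scale, ran from 0.941 to 1.36, from 0.707 to 1.23 and from 0.627 to 1.87. Without libraries 2 and 3 labelled deficient, Itgb7 had a log2 difference of 0.26 ± 0.10 (edgeR unadjusted p = 0.038, adjusted p = 0.248). Itgae and Itgb2l were at -0.15 ± 0.18 and -0.34 ± 0.37 there.

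**Figure D2:**
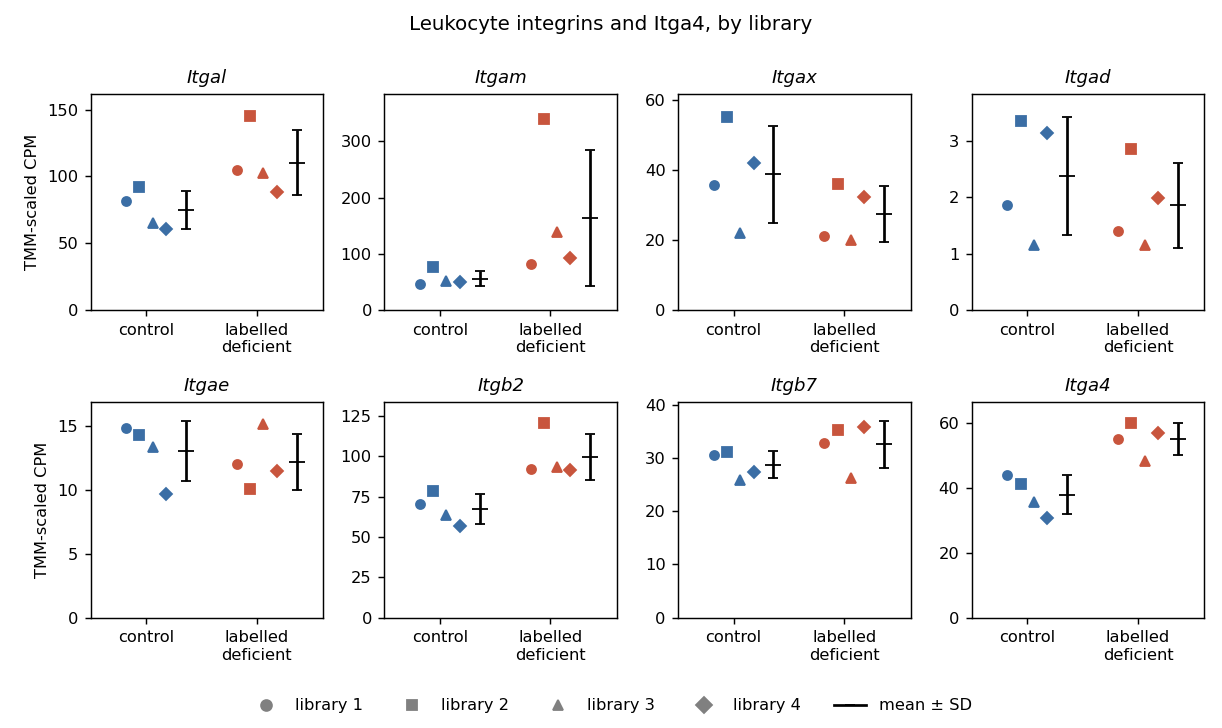
TMM-scaled CPM (vertical axis, from 0) of 7 leukocyte integrin chains and Itga4 in the 4 control libraries (blue) and the 4 labelled deficient (red), with a symbol per library number and bars for mean ± SD. Itgb2, Itgam and Itga4 show no overlap between the groups, and library 2 labelled deficient reaches 340 CPM for Itgam.

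Among the integrins that blood and tissue cells share, Itga4 differed most clearly. It is the alpha chain with which lymphocytes, monocytes and some mesenchymal cells bind VCAM1 and fibronectin, and lies on chromosome 2 from 79255426 to 79333114. Levels were 44.1, 41.4, 35.6 and 30.9 CPM in the controls, and 55.3, 60.2, 48.3 and 56.8 CPM in the group labelled deficient. The groups did not overlap. edgeR gave a log2 difference of 0.54 ± 0.12, a 1.45-fold ratio with a 95% interval of 1.20 to 1.76 (edgeR adjusted p = 0.0906, DESeq2 adjusted p = 0.00321), and 0.57 ± 0.14 without libraries 2 and 3. Relative to Itgb7, all 4 libraries labelled deficient were also above every control, at log2 values of 0.27 to 0.49 against -0.21 to 0.13. The ratio of Itgae to Itgb7 overlapped between the groups.

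Itgb3, the vitronectin receptor chain of platelets, vessels and many tissue cells, measured 119, 191, 149 and 113 CPM in the controls and 158, 255, 261 and 156 CPM in the other group. Libraries 2 and 3 lay above the controls and libraries 1 and 4 within them. The log2 difference of 0.54 ± 0.23 had an edgeR adjusted p of 0.202 and dropped to 0.14 ± 0.21 without libraries 2 and 3. Itga2b, the platelet and megakaryocyte partner of Itgb3, was nearly even, at 15.3 ± 0.461 and 14.7 ± 1.27 CPM (SD, n = 4 each). Platelet markers, 8 genes of which 4 passed the filter, summed to 20.3 to 22.4 CPM in the controls, and 18.7 to 25.6 CPM in the group labelled deficient. Itga2b is in that list and makes up most of the sum, at 14.8 to 15.7 CPM and 13.2 to 16.2 CPM. The sum is therefore no separate measure beside Itga2b.

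The levels of leukocyte markers differed by cell type. Ptprc (CD45), which all leukocytes carry, was at 166, 178, 121 and 127 CPM in the controls and 178, 242, 185 and 167 CPM in the other group, a log2 difference of 0.38 ± 0.16 with overlap between the groups. Of 14 tested T, natural killer and B cell markers 13 had positive differences. Their sum was 80.7 to 138 CPM in the controls, and 149 to 276 CPM in the group labelled deficient, without overlap. At an unadjusted p under 0.05, 9 were higher (64.3%, against 24.8% of all genes). Of 11 macrophage markers 9 were positive, with sums of 861 to 1100 and 1014 to 1372 CPM, and 6 were higher at an unadjusted p under 0.05 (54.5%). Dendritic cell markers were positive in 2 of 8, with sums of 80.7 to 121 and 69.7 to 103 CPM, and 0 had an unadjusted p under 0.05. That list includes Itgax, which alone gave 22.0 to 55.2 CPM in the controls and 19.9 to 36.0 CPM in the other group. The sum is therefore no separate measure beside Itgax. Neutrophil and mast cell markers were positive in 2 of 9, with sums of 53.5 to 99.4 and 54.4 to 83.4 CPM and a median log2 difference of -1.60. Of these 9, 1 was higher and 4 were lower at an unadjusted p under 0.05 (55.6%, against 24.8% of all genes). In 4 the group labelled deficient lay below every control, where 16.3% of all genes had no overlap in either direction. None of these markers was at 0 in all libraries, and the part of leukocyte number in the integrin differences was not tested.

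Of the 4 collagen-binding chains, which pair with Itgb1, 3 were lower and 1 higher at an unadjusted p under 0.05, where 11.8% and 13% of all genes were. Itga1, a collagen receptor of smooth muscle, fibroblasts and vessels, measured 37.7, 43.2, 36.2 and 59.0 CPM in the controls, and 33.7, 23.8, 29.3 and 23.2 CPM in the group labelled deficient. All 4 of the latter lay below every control. On the log2 scale the groups differed by -0.68 ± 0.19, a ratio of 0.624 with a 95% interval of 0.465 to 0.839 (edgeR adjusted p = 0.104), and -0.63 ± 0.24 without libraries 2 and 3. Against Itgb1 in the same library, Itga1 was lower by 0.80 log2 units on average, without overlap (-1.20 to -0.45 against -0.14 to 0.39). As Itgb1 had a log2 difference of 0.13 ± 0.09, this ratio largely repeats the Itga1 levels. The ratios of Itga2 and Itga6 to Itgb1 overlapped between the groups.

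Itga11, a receptor of fibroblasts for fibrillar collagen, had the largest negative difference of all members. It measured 27.5, 13.2, 18.0 and 19.4 CPM in the controls and 5.13, 5.24, 14.2 and 9.59 CPM in the other group. Only library 3 labelled deficient reached into the control range, above control library 2. The log2 difference was -1.19 ± 0.37 (edgeR adjusted p = 0.1198), and it was -1.40 ± 0.36 without libraries 2 and 3. Itga10, best known from cartilage, measured 23.04, 20.4, 27.9 and 26.5 CPM in the controls and 20.9, 17.2, 15.0 and 19.6 CPM in the other group. Here library 1 labelled deficient lay above control library 2, and the log2 difference was -0.43 ± 0.14 (edgeR adjusted p = 0.127), or -0.27 ± 0.14 without libraries 2 and 3. Stromal fibroblast markers summed to 6746 to 9020 CPM in the controls, and 9062 to 11327 CPM in the group labelled deficient. Positive differences were found in 4 of 8, and 3 were higher and 1 lower at an unadjusted p under 0.05 (50%, against 24.8% of all genes). The part of fibroblasts in the Itga10 and Itga11 levels was not tested.

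Itga2, the collagen receptor of epithelium and platelets, lies beside Itga1 on chromosome 13 (114833081 to 114932100, with Itga1 from 114958079 to 115101964) and differed in the opposite direction. It measured 3.77, 4.83, 2.04 and 4.08 CPM in the controls, and 4.58, 17.2, 13.4 and 2.98 CPM in the group labelled deficient. The excess lay in libraries 2 and 3, while 1 and 4 were within the controls. The log2 difference of 1.37 ± 0.56 (edgeR adjusted p = 0.179) came to 0.04 ± 0.36 without libraries 2 and 3.

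Laminin-binding integrins were mixed. Itga6, which pairs with Itgb4 in epithelium and with Itgb1 elsewhere, vessels included, lies on chromosome 2 from 71786886 to 71858427. It measured 75.1, 91.1, 61.6 and 71.4 CPM in the controls, and 132, 306, 140 and 79.1 CPM in the group labelled deficient. Libraries 1, 2 and 3 exceeded every control and library 4 did not. On the log2 scale the groups differed by 1.13 ± 0.37 (edgeR adjusted p = 0.129) and 0.50 ± 0.22 without libraries 2 and 3. Itgb4, its hemidesmosome partner, did not go with it, at 203, 123, 164 and 109 CPM in the controls and 147, 169, 146 and 174 CPM in the other group (log2 difference 0.09 ± 0.19).

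Itga3, a laminin receptor of epithelium and muscle, measured 80.1, 81.3, 80.8 and 89.0 CPM in the controls, and 55.8, 77.1, 65.2 and 75.9 CPM in the group labelled deficient. The groups did not overlap, although the difference was small, at -0.27 ± 0.11 on the log2 scale (edgeR adjusted p = 0.166, DESeq2 adjusted p = 0.117). Itga7, the laminin receptor of muscle, was at 31.8 ± 1.28 CPM in the controls and 30.7 ± 4.20 CPM in the other group (SD, n = 4 each), with a 95% interval of the fold from 0.821 to 1.14. Smooth muscle markers summed to 4574 to 6775 CPM in the controls, and 4565 to 5326 CPM in the group labelled deficient. Negative differences were found in 10 of 10, where 52.0% of all genes tested had positive ones. Of these 10, 3 had an unadjusted p under 0.05 (30%, against 24.8% of all genes). The groups overlapped in 10 of 10, where 16.3% of all genes had no overlap. Mesothelial markers, of the outer lining of the uterus, were negative in 6 of 6, with sums of 305 to 394 CPM and 155 to 250 CPM, and 3 had an unadjusted p under 0.05 (50%). Schwann cell markers were positive in 5 of 7, with sums of 298 to 440 CPM and 453 to 708 CPM, and 2 had an unadjusted p under 0.05 (28.6%). The part of these cells in the integrin levels was not tested.

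Of the 7 chains that bind RGD sequences or tenascin, 3 were positive and 4 negative. Itgb6, an epithelial chain that with Itgav activates TGF-beta, measured 4.46, 5.21, 10.3 and 5.18 CPM in the controls and 7.56, 27.9, 26.2 and 6.69 CPM in the other group. Libraries 2 and 3 stood apart. Libraries 1 and 4 lay inside the control range only through control library 3, and above control libraries 1, 2 and 4. The log2 difference of 1.44 ± 0.54 (edgeR adjusted p = 0.156) became 0.18 ± 0.35 without libraries 2 and 3 labelled deficient. Without control library 3 it was 1.78 (edgeR adjusted p = 0.184). Itgb8, the other chain known for TGF-beta activation, measured 4.79, 3.06, 3.504 and 3.75 CPM in the controls, and 2.78, 2.11, 2.53 and 1.31 CPM in the group labelled deficient. Its groups did not overlap, and the log2 difference was -0.79 ± 0.26 (edgeR adjusted p = 0.130) on low levels of 96 to 348 reads.

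Itgb5, a vitronectin receptor chain, measured 282, 273, 303 and 344 CPM in the controls and 170, 288, 312 and 214 CPM in the other group. Here libraries 1 and 4 were low and 2 and 3 were within the controls, so that the log2 difference of -0.29 ± 0.19 grew to -0.64 ± 0.13 without libraries 2 and 3 (edgeR adjusted p = 0.358 and 0.135). The fibronectin receptor chain Itga5 had a fold interval of 0.792 to 1.17 and Itgav one of 0.836 to 1.45, with a log2 difference of 0.14 ± 0.17 that turned to -0.14 ± 0.14 without libraries 2 and 3. Itga8, a chain of smooth muscle and mesenchyme, had 0.601 to 1.36. Its libraries 1 and 4 labelled deficient (19.2 and 18.8 CPM) lay below every control, and libraries 2 and 3 (30.7 and 33.2 CPM) within them. The log2 difference of Itga8 was -0.15 ± 0.26, and -0.57 ± 0.24 without libraries 2 and 3. Itga9, which binds tenascin and VCAM1, measured 48.7, 43.9, 46.9 and 58.0 CPM in the controls and 51.0, 80.5, 74.7 and 41.1 CPM in the other group. Only libraries 2 and 3 lay above the controls, and its log2 difference of 0.33 ± 0.21 turned to -0.09 ± 0.14 without them. Itgb1, the common partner of most tissue chains, measured 530, 596, 511 and 576 CPM in the controls and 588, 696, 577 and 566 CPM in the other group, with overlap (log2 difference 0.13 ± 0.09, and 0.07 ± 0.08 without libraries 2 and 3).

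**Figure D3:**
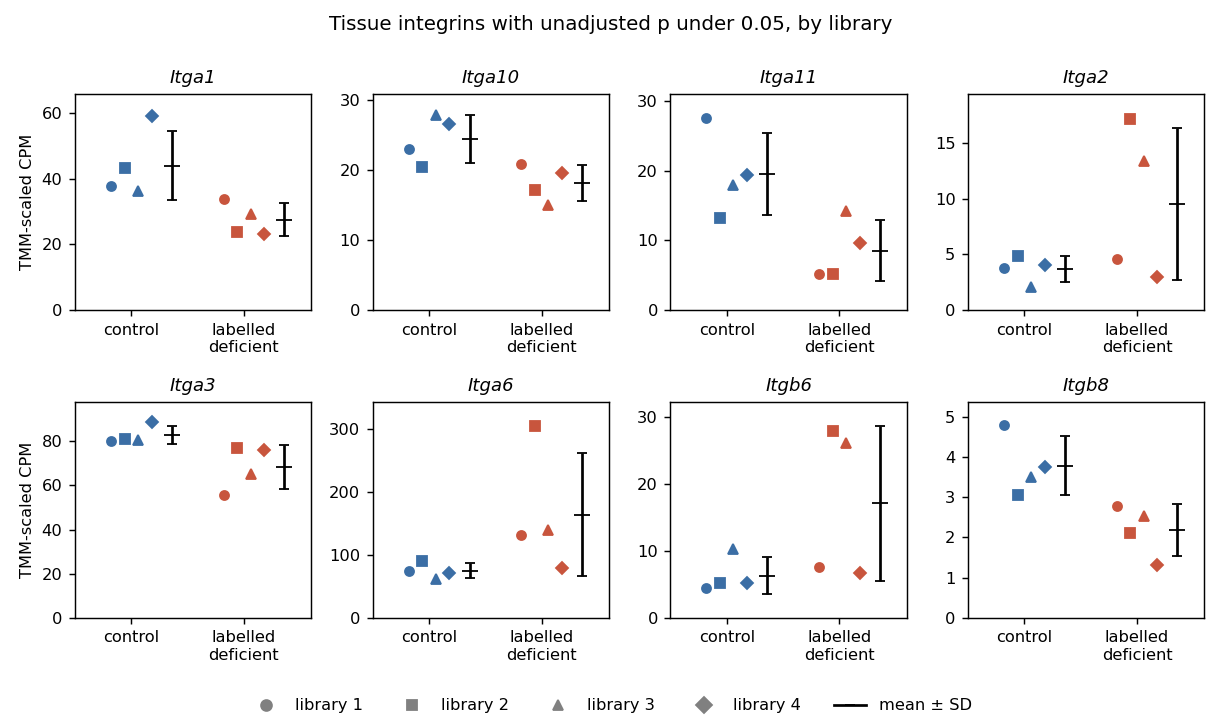
TMM-scaled CPM (vertical axis, from 0) of the 8 tissue integrin chains with an unadjusted p under 0.05 in the 4 control libraries (blue) and the 4 labelled deficient (red), with a symbol per library number and bars for mean ± SD. Itga1, Itga3 and Itgb8 show no overlap, while the high values of Itga2, Itga6 and Itgb6 include libraries 2 and 3 in each case.

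Lama3 and Lamb3, chains of the anchoring laminin of epithelium, did not go together. Lama3, the alpha chain, measured 202, 146, 139 and 247 CPM in the controls, and 61.9, 117, 127 and 121 CPM in the group labelled deficient. All 4 lay below every control, library 1 by the most. edgeR gave a log2 difference of -0.78 ± 0.26 (edgeR adjusted p = 0.134, DESeq2 adjusted p = 0.0359), and -0.999 ± 0.34 without libraries 2 and 3.

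Lamb3, the beta chain, measured 42.01, 29.1, 45.7 and 44.7 CPM in the controls and 14.1, 89.8, 86.0 and 39.3 CPM in the other group, which put library 1 below and libraries 2 and 3 above every control. Its log2 difference was 0.51 ± 0.50 (edgeR adjusted p = 0.547), and -0.59 ± 0.39 without libraries 2 and 3. The log2 ratio of Lamb3 to Lama3, relative to the control mean, was 0.03, 1.78, 1.61 and 0.54 in libraries 1 to 4 labelled deficient and overlapped with the controls (-0.30 to 0.56).

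**Figure D4:**
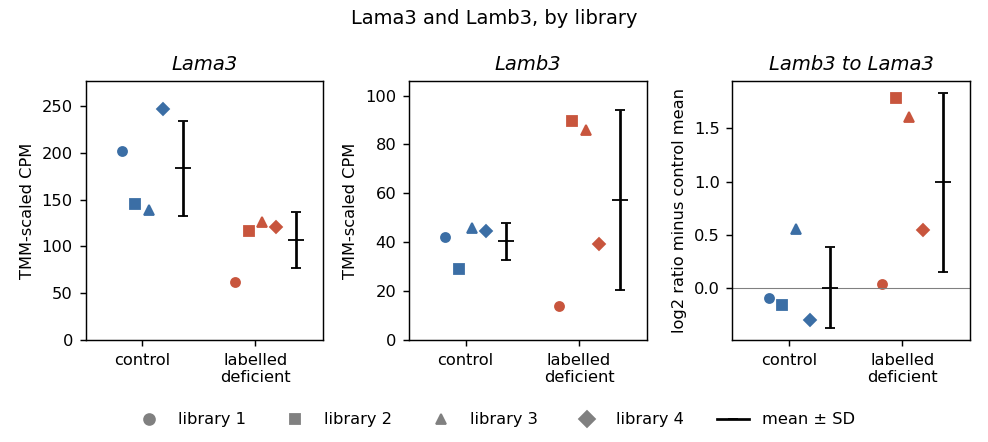
The first 2 panels plot TMM-scaled CPM (vertical axis, from 0) of Lama3 and Lamb3 in the 4 control libraries (blue) and the 4 labelled deficient (red), and the last plots the log2 ratio of Lamb3 to Lama3 minus the control mean. Symbols give the library number and bars mean ± SD. Lama3 is lower in all 4 libraries labelled deficient, while Lamb3 spans 14.1 to 89.8 CPM there.

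Epithelial markers went with the epithelial members only in part. Of 10 markers 7 had positive differences and 3 an unadjusted p under 0.05 (30%, against 24.8% of all genes). Their sum was highest in libraries 2 and 3, as given above. Itga2, Itga6, Itgb6 and Lamb3 were also highest in these libraries, each with library 2 at the top. Lama3 and Itgb4 were not. How far the amount of epithelium accounts for these levels was not tested.

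Among the laminins of muscle, stroma and vessels, Lamb2 differed between the groups. It is the beta chain of the laminins at vessels, muscle and synapses, and lies on chromosome 9 from 108479847 to 108490530. Levels were 513, 552, 506 and 567 CPM in the controls, and 445, 376, 403 and 486 CPM in the group labelled deficient. The groups did not overlap, with libraries 2 and 3 lowest. edgeR gave a log2 difference of -0.32 ± 0.09, a ratio of 0.7999 (95% interval 0.692 to 0.925, edgeR adjusted p = 0.107, DESeq2 adjusted p = 0.0189), and -0.20 ± 0.08 without libraries 2 and 3.

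The beta and gamma chains of most common laminins overlapped between the groups. Lamc1 measured 408, 466, 379 and 467 CPM in the controls and 476, 517, 419 and 434 CPM in the other group. Lamb1 measured 516, 655, 572 and 578 CPM in the controls and 514, 710, 621 and 567 CPM in the other group. The 95% intervals of their folds were 0.918 to 1.26 and 0.866 to 1.25.

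Alpha chains set where a laminin is found. Lama5, of epithelial and vascular basement membranes, measured 392, 381, 369 and 386 CPM in the controls, and 338, 602, 476 and 390 CPM in the group labelled deficient. The controls lay close together and the other group on both sides of them, with libraries 2 and 3 high. Its log2 difference of 0.24 ± 0.16 turned to -0.07 ± 0.08 without them. Lama2, the muscle alpha chain, measured 217, 205, 227 and 187 CPM in the controls and 250, 144, 142 and 231 CPM in the other group, so that libraries 2 and 3 were low and 1 and 4 high. Its log2 difference of -0.12 ± 0.20 turned to 0.21 ± 0.09 without libraries 2 and 3 (edgeR adjusted p = 0.714 and 0.29). Lama4, of vessels, was at 187 ± 33.5 and 201 ± 42.2 CPM (SD, n = 4 each), with a log2 difference of 0.11 ± 0.17 that turned to -0.13 ± 0.16 without libraries 2 and 3. Lama1, best known from the embryo, was at 8.42 ± 1.96 and 6.99 ± 1.17 CPM (SD, n = 4 each).

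Lamc3 had the widest spread of all members within the libraries labelled deficient. It measured 60.7, 46.4, 68.9 and 36.6 CPM in the controls and 124, 18.6, 21.6 and 78.3 CPM in the other group. Libraries 1 and 4 lay above every control and libraries 2 and 3 below every control, so that the log2 difference was 0.19 ± 0.59, or 0.94 ± 0.28 without libraries 2 and 3 (edgeR adjusted p = 0.858 and 0.173). Endothelial markers were lowest in the same 2 libraries, with sums of 765 and 883 CPM against 1494 and 1327 CPM in libraries 1 and 4 and 1136 to 1403 CPM in the controls. Of 9 endothelial markers 7 had negative differences, none had an unadjusted p under 0.05, and none was at 0. Their part in the Lamc3 and Lama2 levels was not tested.

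**Figure D5:**
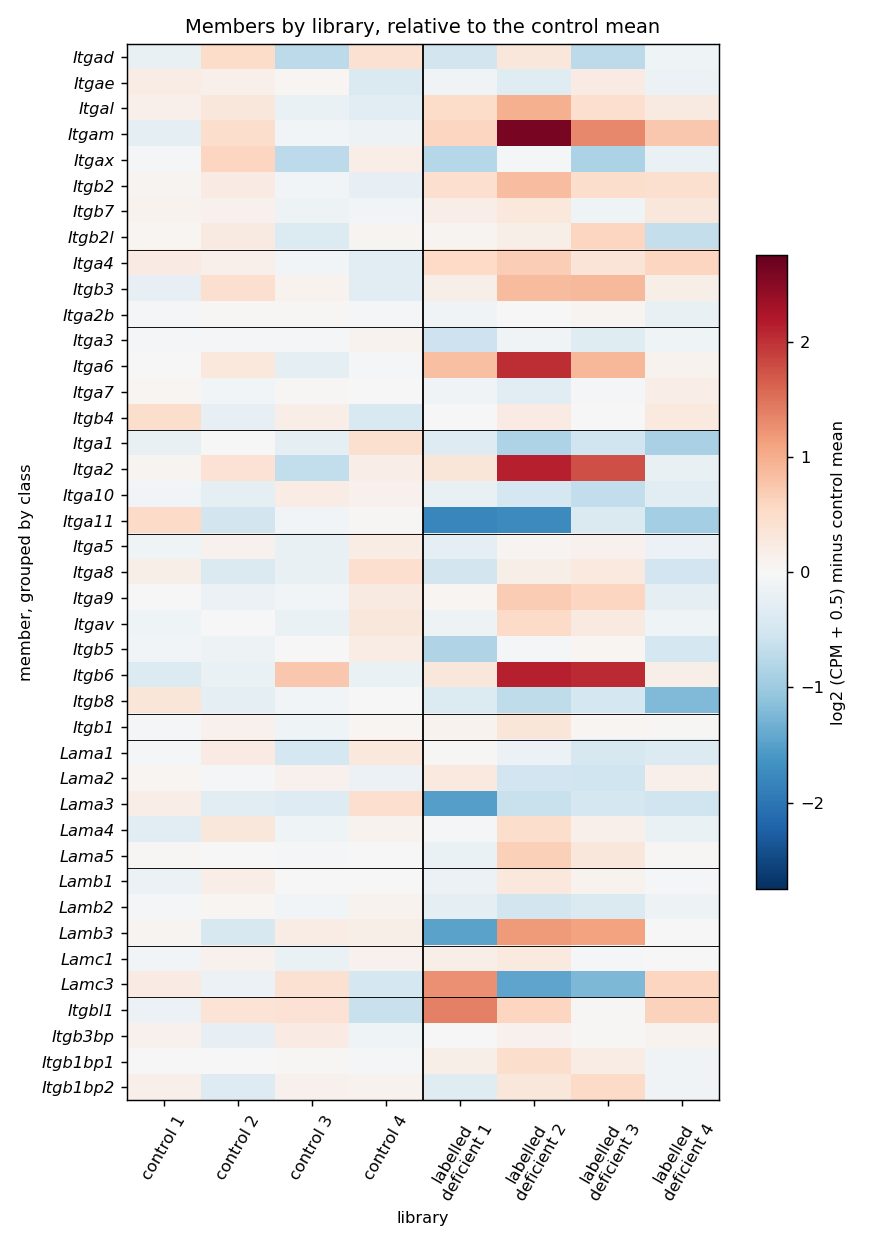
Level of each of 41 members (vertical axis, grouped by class) in each of the 8 libraries (horizontal axis), as log2 of CPM + 0.5 minus the mean of the 4 controls; red is above and blue below that mean. Libraries 2 and 3 labelled deficient are red for Itgam, Itga2, Itga6, Itgb6 and Lamb3 and blue for Lamc3, Lama2 and Lamb2.

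Libraries 2 and 3 formed the top or the bottom pair of the group labelled deficient in 25 of 42 members (59.5%), against 54.6% of all genes tested. They were the top pair in 20 members and the bottom pair in 5. Library 2 alone was highest in 21 members. Shares of all genes for each direction and for library 2 alone were not computed. The range over the libraries of a group was wider in the libraries labelled deficient for 30 members (71.4%), against 71.5% of all genes. The shares of 59.5% and 71.4% are near those of all genes.

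The 4 genes that only share the prefix are not adhesion receptors, and none had an unadjusted p under 0.05 with all libraries. Itgb1bp1, whose protein binds the Itgb1 tail, measured 23.3, 23.5, 24.0 and 22.5 CPM in the controls, and 26.0, 33.0, 26.9 and 21.8 CPM in the group labelled deficient. Library 4 was below the controls and the other 3 above them, and the log2 difference was 0.21 ± 0.12, or 0.04 ± 0.10 without libraries 2 and 3. Itgbl1, a secreted protein related to beta chains, was at 2.99 ± 1.07 and 5.12 ± 2.25 CPM (SD, n = 4 each). Its log2 difference was 0.77 ± 0.37 (edgeR adjusted p = 0.236). Without libraries 2 and 3 labelled deficient it was 1.12 ± 0.38 (edgeR unadjusted p = 0.023, adjusted p = 0.208). Itgb3bp, a centromere protein, was at 8.82 ± 1.37 and 9.16 ± 0.316 CPM (SD, n = 4 each). Itgb1bp2 (melusin), known from striated muscle, had the fewest reads, 21 to 68 per library.

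Adaptors that link integrins to the actin cytoskeleton were listed together with signalling and surface proteins of adhesion, such as Src, Rap1b, Rasgrp2 and Cd151. Genes of this list differed in both directions. Of 31 genes tested 4 were higher and 6 lower at an unadjusted p under 0.05 (32.3%, against 24.8% of all genes), 0 passed over all genes, and the median log2 difference was 0.05. Fermt3, the kindlin of blood cells, measured 32.8, 32.5, 29.2 and 24.5 CPM in the controls, and 41.5, 52.1, 41.5 and 39.5 CPM in the group labelled deficient, without overlap (log2 difference 0.55 ± 0.12, edgeR adjusted p = 0.0906). Lims2 (PINCH2), which binds integrin-linked kinase, measured 69.9, 73.6, 66.2 and 74.3 CPM in the controls and 44.6, 41.1, 58.4 and 49.4 CPM in the other group, also without overlap (-0.55 ± 0.11, adjusted p = 0.0906). Tln2, a talin with high levels in muscle and brain, was at -0.74 ± 0.21 and Lims1 (PINCH1) at -0.33 ± 0.10. Whether leukocyte and tissue adaptors differed from each other was not tested.

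Of 21 other genes of basement membranes and laminin receptors, 4 were higher and 2 lower at an unadjusted p under 0.05 (28.6%, against 24.8% of all genes), 0 passed over all genes, and the median was 0.01. Col4a1 and Col4a2, the collagen IV chains of nearly all basement membranes, were at 0.40 ± 0.14 and 0.38 ± 0.12, each higher in all 4 libraries labelled deficient than in any control. Bcam, an adhesion receptor for Lama5, was at -0.54 ± 0.15 and Ntn4, a netrin that binds laminin, at -0.81 ± 0.27. Of 20 tested integrin ligands other than laminins, 6 were higher and 2 lower (40%, against the same 24.8%), 0 passed over all genes, and the median was 0.29. Nov (Ccn3), a matricellular protein, was at -1.004 ± 0.23, Postn (periostin) at -0.65 ± 0.22, Tgfb1 at 0.21 ± 0.06 and Lrrc32 (GARP), which presents latent TGF-beta to integrins, at 0.50 ± 0.16. The edgeR adjusted p of the 4 named basement membrane genes ran from 0.106 to 0.134 and that of the 4 named ligands from 0.0906 to 0.137.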

How the data were processed

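The authors deposited whole-number counts per gene symbol for 8 libraries in 1 table, without normalization. HISAT2 2.2.1, HTSeq 0.10.0 and the build mm10 are named, per the submitters' processing notes, while settings such as strand are not given there. Columns were matched to samples by the library code in the titles. After filterByExpr (17629 genes left) and TMM scaling, groups were compared with edgeR 4.0.16 under R 4.3.3 (glmQLFit with legacy=TRUE, glmQLFTest), with no covariate, and p-values were adjusted by Benjamini-Hochberg over all genes tested. The SE was derived from the log2 difference and its F value. CPM values use the same scaling, and levels are not compared between genes because no transcript lengths were used. No 2 libraries agreed within sampling noise: chi-square over degrees of freedom was 46.5 or more for each pair. Coordinates come from a RefSeq table of GRCm38.p6, in which 42 members matched by symbol. A single member enters every count but is not reported individually here and is not plotted.

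The members, their classes and all lists were chosen with earlier results of these data known. Members with an unadjusted p under 0.05 or groups that do not overlap, and the member with the highest CPM in each class, are given library by library, and so are some others chosen after their values were seen. Of each further list up to 4 genes with the smallest p are named. As alternatives, scaling used library totals, upper quartiles or DESeq2's size factors, and the filter was dropped or set to 1 CPM in 4 libraries. Tests were repeated with limma-voom (limma 3.58.1), DESeq2 1.42.0, legacy=FALSE, robust=TRUE and the replicate number as a block, and without each library or without libraries 2 and 3 labelled deficient. The code was first tested on simulated counts.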

Additional observations from a re-analysis of the deposited data

Results flagged for a closer look

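Of 84 sets of 4 libraries (42 members in each group), 6 held a library far from the other 3 by Dixon's test, which flags about 1 in 20 sets by chance. In the group labelled deficient, library 1 had 61.9 CPM of Lama3 against 117 to 127 CPM in the others. Library 2 of that group had 121 CPM of Itgb2 against 91.2 to 93.2 CPM, and 696 CPM of Itgb1 against 566 to 588 CPM. Among the controls, library 2 had 0.296 CPM of Itgb1bp2 against 0.592 to 0.620 CPM, library 4 had 89.0 CPM of Itga3 against 80.1 to 81.3 CPM, and library 3 had 10.3 CPM of Itgb6 against 4.46 to 5.21 CPM.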

How the results depend on the processing

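The number of members past edgeR's adjusted threshold was 0 under every alternative run with edgeR or limma-voom, and 13 with DESeq2. At an unadjusted p under 0.05 it was 15, against 24.8% of all genes. Under all alternatives it was between 11 and 18, with 16.2% and 30.7% of all genes at those ends. Without libraries 2 and 3 labelled deficient it was 13, of which 9 were among the 15, against 18.4% of all genes. Itgb5, Itgb7, Itgbl1 and Lamc3 were added there. On leaving out 1 library, fits chosen after seeing the data, the DESeq2 count ran from 3 (927 of all genes) to 16 (3961 of all genes). Without libraries 2 and 3 labelled deficient it was 7, against 1461 of all genes. Of these 7, 5 were among the 13 (Itga4, Itga11, Itgam, Itgb2 and Lama3), and Itgb5 and Lamc3 were added. Groups did not overlap in 8 members under each of the other 3 scalings too. Without libraries 2 and 3 labelled deficient, 10 of all 42 members had the opposite sign, 0 of them among the 15 (Itga7, Itga9, Itgav, Itgb1bp2, Itgb2l, Lama2, Lama4, Lama5, Lamb1 and Lamb3). All alternatives were computed for the 23 members that the rule for named genes selects, of which 3 changed sign under at least 1: Itgb4 ran from -0.049 to 0.26 and Lamb1 from -0.028 to 0.13 on leaving out 1 library, and without libraries 2 and 3 labelled deficient Lamb1 was at -0.10 and Lama5 at -0.066; the cause was not tested. With the replicate block, 16 members had an unadjusted p under 0.05, against 24.6% of all genes. After adjustment 0 members and 23 of all genes passed. Whether the replicate numbers pair the libraries cannot be settled with 4 libraries per group. Deviations of same-numbered libraries correlated at 0.22, 0.29, -0.0036 and -0.08, and not every library correlated best with its own number. Depth limits Itgb1bp2 and, less so, Itgad, Itgb2l and Itgb8.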

Other observations

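Several members overlap another gene in the annotation, and without the strand setting of the counting their reads cannot be fully told apart. Pelo, a ribosome rescue factor whose gene lies within Itga1, was at 22.2 ± 2.39 CPM in the controls and 19.0 ± 2.68 CPM in the other group (SD, n = 4 each), with a log2 difference of -0.22 ± 0.12. Galk1, the galactokinase gene that overlaps Itgb4, was at 25.8 ± 1.74 and 31.1 ± 2.31 CPM (SD, n = 4 each), with a log2 difference of 0.27 ± 0.08 (edgeR adjusted p = 0.117). Cpsf3 and Asap2 overlap Itgb1bp1 and were at 0.23 ± 0.11 and 0.19 ± 0.17 on the log2 scale. Igsf5, which overlaps Itgb2l, was at 0.50 ± 0.29, with its highest levels in libraries 2 and 3 labelled deficient (23.9 and 21.2 CPM, against 9.72 to 14.5 CPM in the controls). Cerkl, Cox6a2, Fgf14 and Mettl7b, which overlap Itga4, Itgad, Itgbl1 and Itga7, were each under 1 CPM on average in both groups.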
